A study of Mus musculus with 12 samples.

Results

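Signalling by parathyroid hormone-related protein (PTHrP) and Indian hedgehog was examined through 9 genes: the ligand genes Pthlh and Ihh, the receptor genes Pth1r, Ptch1 and Smo, the transcription factor genes Gli1, Gli2 and Gli3, and the hedgehog inhibitor gene Hhip. They were taken by their symbols from the gene table of a Runx3 RNA-seq experiment, which holds 17536 genes, and all 9 were present. The cells were chondrocytes of the superficial zone (SFZ) and of the deep zone (DZ) of articular cartilage, isolated from C57BL/6J mice at 5 days of age. The methods of the study describe monolayer culture of such cells, and its part in the levels below was not tested. R3-Cntl mice were Runx3 fl/fl, and R3-cKO mice were Col2a1-Cre; Runx3 fl/fl littermates. All animals therefore carried floxed Runx3 alleles, and Cre was under the control of Col2a1, a gene that chondrocytes transcribe. Each of the 4 groups held 3 libraries, and 12 libraries were measured in all. The study names 3 mice of each genotype as the source of cells for both zones, with the DZ cells freed by a later digestion, so the zones share animals, but the labels do not say which libraries belong to one mouse. The comparisons asked how the pathway genes differed between zones and between genotypes.

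The deposited values behave as FPKM, the number of mapped fragments divided by transcript length and by library depth, scaled between libraries. The unit was inferred from the values. Low values moved in steps that would correspond to 26200000 to 29600000 fragments per library, with 70.1 to 84.1% of low values within 0.2 of a whole number of fragments. At that depth the lowest value of Ihh stood for about 4 fragments and the lowest values of Pthlh and Hhip for about 5 each. The lowest values of Smo and Pth1r stood for about 6858 and 914 fragments. The lowest values of Ihh, Pthlh and Hhip thus rest on few fragments. Library totals ran from 392241 to 429213 FPKM.

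In growth cartilage, PTHrP is released by periarticular and resting chondrocytes and binds Pth1r, a receptor coupled to G proteins that raises cyclic AMP and holds chondrocytes in the proliferating state. Prehypertrophic chondrocytes release Indian hedgehog, which binds Ptch1 and thereby frees Smo to activate Gli transcription factors at the primary cilium. Gli1, Ptch1 and Hhip are themselves transcribed in response to hedgehog, and Indian hedgehog maintains Pthlh, which closes a feedback loop between the ends of the cartilage.

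Runx3, the gene targeted in these mice, was measured first. SFZ levels of Runx3 were 10.73, 5.98 and 6.65 FPKM for R3-Cntl libraries 1, 2 and 3, against 11.83, 9.07 and 3.42 FPKM for R3-cKO libraries 1, 2 and 3. DZ levels of Runx3 were 12.67, 12.65 and 7.66 FPKM for R3-Cntl, against 15.95, 12.66 and 8.14 FPKM for R3-cKO. The genotypes overlapped in both zones. In limma the genotypes differed by -0.04 on the log2 scale (standard error 0.43, adjusted p = 1.0) in the SFZ and by 0.13 (standard error 0.28, adjusted p = 0.999) in the DZ. A value per gene covers all exons and does not show whether the floxed part was present, so the samples are called libraries labelled R3-cKO below.

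Markers of the labelled zones were checked next. The 14 chondrocyte genes, of which Col2a1 was the most abundant, gave SFZ sums of 16712, 5492 and 10309 FPKM for R3-Cntl libraries 1, 2 and 3, against 14381, 8402 and 6349 FPKM under the R3-cKO label. Their DZ sums were 38428, 24239 and 31346 FPKM for R3-Cntl, against 25488, 16904 and 30545 FPKM under the R3-cKO label. Every DZ library exceeded every SFZ library. Over both genotypes in limma, 13 of the 14 genes were called higher in the DZ (4.3% over all genes), with a median log2 difference of 1.25. The 13 superficial zone genes, led by Sfrp2, summed to 362.0 to 1428 FPKM in the SFZ and 65.8 to 154.6 FPKM in the DZ. Of 12 tested, 6 were called lower in the DZ (18.9% over all genes). Within the SFZ 12 of the genes passed the filter of 1 FPKM in at least 3 libraries, and within the DZ 10 did. Without a filter, 7 of the 13 were called lower, where 2289 of all 17536 genes were. Among them Prg4, which encodes lubricin, measured 2.13 to 22.24 FPKM in the SFZ and 1.22 to 5.72 FPKM in the DZ, with the lowest SFZ value in library 3 labelled R3-cKO, under 2 DZ libraries. Gdf5 of the same list had a log2 difference above 0, at 0.89 (standard error 0.31, limma adjusted p = 0.0596). Thbs4 separated the zones, with at least 36.71 FPKM in each SFZ library and at most 2.49 FPKM in each DZ library, including 0 FPKM in DZ library 3 labelled R3-cKO. Within R3-Cntl, 26.5% of all genes had every DZ library below every SFZ library, and the share over 12 libraries was not computed.

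RNA of other cell types was present in the SFZ preparations. The 11 genes of fibroblasts, perichondrium and synovium, led by Col1a1, gave SFZ sums of 2781, 4985 and 2904 FPKM for R3-Cntl libraries 1, 2 and 3, against 2844, 2428 and 6504 FPKM under the R3-cKO label. Their DZ sums were 538.2, 754.0 and 2076 FPKM for R3-Cntl, against 446.1, 690.5 and 1739 FPKM under the R3-cKO label. SFZ library 2 of R3-Cntl and SFZ library 3 labelled R3-cKO thus held the most fibroblast RNA and had the 2 lowest of the 12 chondrocyte sums. With Sfrp2 at 321.14 and 584.01 FPKM, they also had the highest sums of the superficial zone list. The 11 macrophage genes, led by Lyz2, gave SFZ sums of 181.5, 152.9 and 8.18 FPKM for R3-Cntl libraries 1, 2 and 3, against 152.5, 15.9 and 72.9 FPKM under the R3-cKO label, and DZ sums of 3.94 to 25.2 FPKM. The 14 skeletal muscle genes, led by Acta1, summed to 234.9 FPKM in R3-Cntl SFZ library 2 and to 5.65 to 20.4 FPKM elsewhere.

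The remaining lists were checked in the same way. The 15 keratinocyte genes, led by Perp, summed to 10.9 to 39.5 FPKM, and Krt5 and Krt14 stayed at or below 0.1 and 0.13 FPKM. The 8 endothelial genes, led by Pecam1, summed to 0.09 to 6.01 FPKM, and Emcn was 0 in 7 libraries. Pmp22 led the 8 Schwann cell genes with 125.5 to 228.1 FPKM while Sox10 was 0 in 6 libraries and at most 0.29 FPKM. Ctsk led the 8 osteoclast genes with 39.52 to 173.9 FPKM while Calcr was 0 in 10 libraries. Fmod led the 6 tendon genes with 399.1 to 1293 FPKM, and 4 of the 6 were called lower in the DZ (18.9% over all genes). Within the SFZ 6 of them passed the filter and within the DZ 4 did, so some entered through the SFZ. With no filter, 4 of the 6 were called lower, where 2289 of all 17536 genes were. The 9 osteoblast genes were led by Col1a1, and 4 of 5 tested were called lower in the DZ, against the same 18.9%. Of 6 Schwann and nerve genes tested, 3 were called higher in the DZ (4.3% over all genes) and 0 lower (18.9%). Only 4 of the list passed the filter within each zone. With no filter, 2 of 8 were called higher, where 516 of all 17536 genes were.

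By median over the 12 libraries, Smo was the most abundant of the 9 genes at 75.4 FPKM, followed by Pth1r at 32.7, Ptch1 at 14.7, Gli3 at 7.04, Gli2 at 3.54, Gli1 at 2.06, Ihh at 1.43, Pthlh at 0.665 and Hhip at 0.435 FPKM. FPKM is scaled to transcript length, which allows this order across genes. The ranges of neighbours in this order overlapped throughout, as for Pth1r at 15.07 to 77.76 FPKM and Smo at 68.59 to 104.69 FPKM. By mean, Smo ranked 828 of 17536 genes, and Pthlh ranked 11446. The receptors and the signal transducer were therefore abundant and the ligands scarce. In the SFZ of R3-Cntl the order at the low end turned, with medians of 2.11 FPKM for Hhip, 0.66 for Ihh and 0.46 for Pthlh. It also turned under the R3-cKO label. There the SFZ medians were 4.36 FPKM for Gli1, 3.37 for Gli2, 1.09 for Hhip and 0.87 for Pthlh, and the DZ medians were 1.33 for Ihh and 1.0 for Gli1. The plot of FPKM by library shows these levels, with the ligands and Hhip under 6 FPKM in every library.

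**Figure D1:**
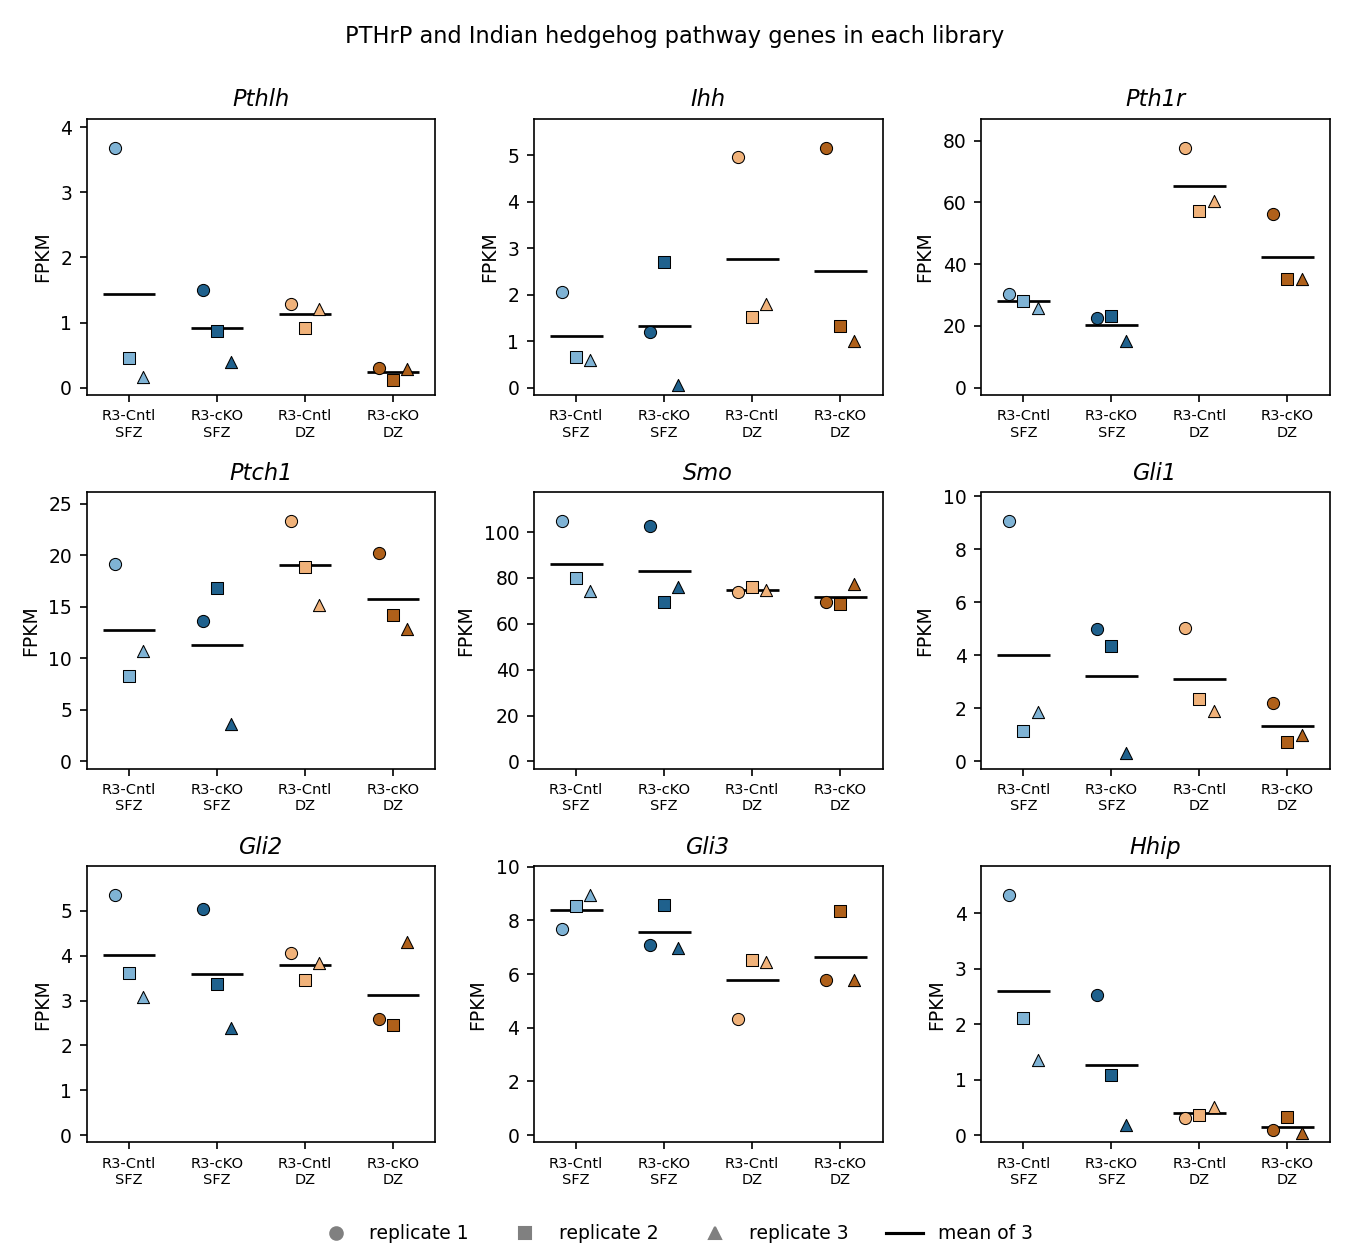
FPKM of the 9 genes in each library, by genotype and zone, with 3 libraries per group (symbols by replicate number) and a line at the group mean. Pth1r is higher in all 6 DZ libraries than in all 6 SFZ libraries, a separation whose share over all genes was not computed. The means of Hhip are 2.60 and 1.27 FPKM in the SFZ against 0.393 and 0.150 FPKM in the DZ.

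Promoter windows were examined for letters bound by factors of these pathways and by Runx proteins. Windows of 300 bases, 250 before and 50 after each start site, came from RefSeq on build GRCm38.p6, matched 8 of the 9 genes by symbol and gave 10 windows, with no entry for Gli1. The searched letters, on both strands, were GACCACCCA for Gli factors, TGTGGT and TGCGGT for Runx factors, and TGACGTCA for factors responsive to cyclic AMP. They occur in 0.253%, 16.8%, 6.45% and 1.79% of all 32851 windows, and none of them contains another. The letters of the Gli motif were in 0 of the 10 windows. The 3 windows with a match are printed 5′ to 3′ on the strand of the gene because they belong to a ligand, to the inhibitor called between zones and to a Gli factor whose control groups did not overlap; capitals mark the match. The window of Ihh (chr1:74951623-74951922, reverse strand) holds TGCGGT from position -45, that of Hhip (chr8:80057959-80058258, reverse strand) holds TGACGTCA from -75, and that of Gli3 (chr13:15463473-15463772, forward strand) holds ACCACA, the complement of TGTGGT, from -120.
Ihh: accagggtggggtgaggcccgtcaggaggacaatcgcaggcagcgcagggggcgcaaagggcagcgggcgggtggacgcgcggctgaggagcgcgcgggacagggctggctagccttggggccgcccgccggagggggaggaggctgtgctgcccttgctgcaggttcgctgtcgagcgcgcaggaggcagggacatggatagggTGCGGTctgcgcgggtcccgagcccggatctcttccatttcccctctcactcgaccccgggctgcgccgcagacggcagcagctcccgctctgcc
Hhip: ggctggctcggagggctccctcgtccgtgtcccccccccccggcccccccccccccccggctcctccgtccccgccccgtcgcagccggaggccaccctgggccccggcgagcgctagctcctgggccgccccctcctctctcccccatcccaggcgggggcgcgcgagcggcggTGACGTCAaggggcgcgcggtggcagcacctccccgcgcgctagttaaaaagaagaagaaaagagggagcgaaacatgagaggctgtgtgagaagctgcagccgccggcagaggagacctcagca
Gli3: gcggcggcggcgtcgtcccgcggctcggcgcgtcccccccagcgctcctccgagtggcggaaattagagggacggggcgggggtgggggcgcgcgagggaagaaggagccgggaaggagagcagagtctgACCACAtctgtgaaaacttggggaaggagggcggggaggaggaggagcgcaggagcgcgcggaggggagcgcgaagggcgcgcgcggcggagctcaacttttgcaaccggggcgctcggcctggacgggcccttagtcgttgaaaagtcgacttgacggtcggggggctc
These matches describe the letters of the windows only. Windows without a match say only that the letters are not in that stretch.

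Pthlh (Entrez gene 19227, mm9 chromosome 6, 147200623 to 147212689, reverse strand) encodes PTHrP, the ligand of Pth1r. SFZ levels of Pthlh were 3.69, 0.46 and 0.17 FPKM for R3-Cntl (libraries 1, 2 and 3, an order kept for all values below), against 1.5, 0.87 and 0.39 FPKM under the R3-cKO label. DZ levels of Pthlh were 1.28, 0.92 and 1.20 FPKM for R3-Cntl, against 0.30, 0.12 and 0.29 FPKM under the R3-cKO label. The SFZ values spread widely and overlapped between genotypes, with the highest of all 12 in R3-Cntl library 1. In the DZ the genotypes did not overlap, and every library labelled R3-cKO was below every R3-Cntl library. The ratio of means, R3-cKO over R3-Cntl, was 0.209 in the DZ and 0.639 in the SFZ.

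Ihh (Entrez gene 16147, chromosome 1, 74991891 to 74998246, reverse strand) encodes Indian hedgehog, the ligand of Ptch1. SFZ levels of Ihh were 2.05, 0.66 and 0.59 FPKM for R3-Cntl, against 1.20, 2.71 and 0.06 FPKM under the R3-cKO label. DZ levels of Ihh were 4.96, 1.53 and 1.81 FPKM for R3-Cntl, against 5.17, 1.33 and 1.01 FPKM under the R3-cKO label. Libraries numbered 1 were the highest of both DZ groups, and all groups overlapped. The lowest value was in SFZ library 3 labelled R3-cKO, the library with the most fibroblast RNA.

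Col10a1, the collagen gene of hypertrophic chondrocytes, varied over the same libraries. SFZ levels of Col10a1 were 58.73, 38.52 and 74.51 FPKM for R3-Cntl, against 30.61, 254.69 and 3.67 FPKM under the R3-cKO label. DZ levels of Col10a1 were 793.36, 241.28 and 68.75 FPKM for R3-Cntl, against 288.66, 318.09 and 59.19 FPKM under the R3-cKO label. Its highest value, like the second highest of Ihh, was in R3-Cntl DZ library 1, and both genes had their lowest value in SFZ library 3 labelled R3-cKO. The 13 prehypertrophic and hypertrophic genes, led by Spp1, summed to 449.6 to 995.1 FPKM in the SFZ and 835.1 to 1715 FPKM in the DZ. Of the 13, 0 were called higher (4.3% over all genes) and 1, Runx2, was called lower in the DZ (18.9%).

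Pth1r (Entrez gene 19228, chromosome 9, 110624592 to 110649649, reverse strand) encodes the receptor shared by PTHrP and parathyroid hormone. SFZ levels of Pth1r were 30.23, 28.13 and 25.68 FPKM for R3-Cntl, against 22.45, 23.26 and 15.07 FPKM under the R3-cKO label. DZ levels of Pth1r were 77.76, 57.25 and 60.59 FPKM for R3-Cntl, against 56.19, 35.20 and 35.27 FPKM under the R3-cKO label. All 6 DZ libraries were above all 6 SFZ libraries. The share of all genes separated so over 12 libraries was not computed. Within a genotype, DZ libraries were all above SFZ libraries for 5.96% of all genes in R3-Cntl and 4.24% under the R3-cKO label. Within each zone, every library labelled R3-cKO was below every R3-Cntl library. Group means fell in the order R3-Cntl DZ (65.2 ± 11 FPKM, SD, n = 3), DZ labelled R3-cKO (42.2 ± 12.1), R3-Cntl SFZ (28.0 ± 2.28) and SFZ labelled R3-cKO (20.3 ± 4.51).

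Ptch1 (Entrez gene 19206, chromosome 13, 63610261 to 63674474, reverse strand) encodes the hedgehog receptor and is also a hedgehog target. SFZ levels of Ptch1 were 19.13, 8.31 and 10.67 FPKM for R3-Cntl, against 13.58, 16.78 and 3.59 FPKM under the R3-cKO label. DZ levels of Ptch1 were 23.29, 18.83 and 15.13 FPKM for R3-Cntl, against 20.23, 14.18 and 12.87 FPKM under the R3-cKO label. The DZ values were narrower and mostly higher, but zones and genotypes overlapped. Smo (Entrez gene 319757, chromosome 6, 29685694 to 29711365, forward strand), the transducer that Ptch1 restrains, ranged from 68.59 to 104.69 FPKM. Its group means lay between 71.8 FPKM (DZ, R3-cKO label) and 86.2 FPKM (SFZ, R3-Cntl), and its SD was 16.2 and 17.5 FPKM in the SFZ groups against 0.986 and 4.92 FPKM in the DZ groups.

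Gli1 (Entrez gene 14632, chromosome 10, 126766945 to 126778645, reverse strand) encodes an activator that is itself a hedgehog target. SFZ levels of Gli1 were 9.06, 1.14 and 1.88 FPKM for R3-Cntl, against 5.00, 4.36 and 0.33 FPKM under the R3-cKO label. DZ levels of Gli1 were 5.02, 2.35 and 1.90 FPKM for R3-Cntl, against 2.21, 0.74 and 1.0 FPKM under the R3-cKO label. The SFZ values spread widest, and the DZ genotypes overlapped only through R3-cKO library 1, which lay above R3-Cntl library 3. Gli2 (Entrez gene 14633, chromosome 1, 120730709 to 120950196, reverse strand), the principal activator, ranged from 2.38 to 5.35 FPKM, and all groups overlapped.

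Gli3 (Entrez gene 14634, chromosome 13, 15555068 to 15821859, forward strand) encodes the Gli protein that acts mainly as a repressor in the absence of hedgehog. R3-Cntl levels of Gli3 were 7.69, 8.52 and 8.94 FPKM for the SFZ, against 4.33, 6.51 and 6.46 FPKM for the DZ. Under the R3-cKO label they were 7.10, 8.57 and 6.98 FPKM for the SFZ, against 5.77, 8.33 and 5.76 FPKM for the DZ. The R3-Cntl zones did not overlap, with the DZ lower, whereas the zones of the libraries labelled R3-cKO did.

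Hhip (Entrez gene 15245, chromosome 8, 82490014 to 82581905, reverse strand) encodes a membrane protein that binds hedgehog ligands and limits their action. SFZ levels of Hhip were 4.33, 2.11 and 1.36 FPKM for R3-Cntl, against 2.52, 1.09 and 0.19 FPKM under the R3-cKO label. DZ levels of Hhip were 0.31, 0.36 and 0.51 FPKM for R3-Cntl, against 0.09, 0.32 and 0.04 FPKM under the R3-cKO label. The R3-Cntl zones did not overlap. Of the 6 SFZ libraries, 5 were above every DZ library, and the exception was SFZ library 3 labelled R3-cKO. The highest DZ value was 0.51 FPKM.

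Zones were compared over both genotypes in all 12 libraries with limma on log2(FPKM + 1), a scale that understates the change of low genes, with genotype in the model and Benjamini-Hochberg adjustment over 11765 genes. All 9 genes passed the filter of 1 FPKM in at least 3 libraries, but Hhip reached it in 5 SFZ libraries and in no DZ library, so it entered through the zone where it was higher. Pth1r was called higher in the DZ and Hhip lower, at an adjusted p under 0.05. This makes 1 of 9 higher, where 4.3% of all genes were called higher, and 1 of 9 lower, where 18.9% were called lower. Pth1r had a log2 difference, DZ minus SFZ, of 1.10 (standard error 0.15, adjusted p = 0.00109). Hhip had a log2 difference of -1.07 (standard error 0.26, adjusted p = 0.0149, or 0.0211 without a filter); the difference was -2.22 at a pseudocount of 0.1 and -0.37 at one of 5. These fits treat libraries as independent although the zones share mice. Blocked by number within genotype, the adjusted p was 0.00170 for Pth1r and 0.0157 for Hhip. The number need not mark the mouse, since R3-Cntl libraries of the same number correlated between zones with r = 0.58, 0.11 and -0.15. The block may thus pair libraries of different mice there.

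The other genes did not pass. Gli3 had a log2 difference of -0.33 (standard error 0.12, adjusted p = 0.0717), and its adjusted p was 0.0260 with the replicate number as a block and 0.0191 without DZ library 2 labelled R3-cKO. Ihh had a log2 difference of 0.69 (standard error 0.38, adjusted p = 0.207). Ptch1 had one of 0.62 (standard error 0.31, adjusted p = 0.171), which is above 0 like that of its ligand. Gli1 (-0.34, standard error 0.46), Pthlh (-0.25, standard error 0.31), Smo (-0.18, standard error 0.11) and Gli2 (-0.09, standard error 0.17) had log2 differences below 0. Gli2 turned to 0.15 under quantile normalization. In the plot of differences between zones, Pth1r stands to the right and Hhip to the left, and the bars of Pthlh, Smo, Gli1 and Gli2 span the median of all genes.

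**Figure D2:**
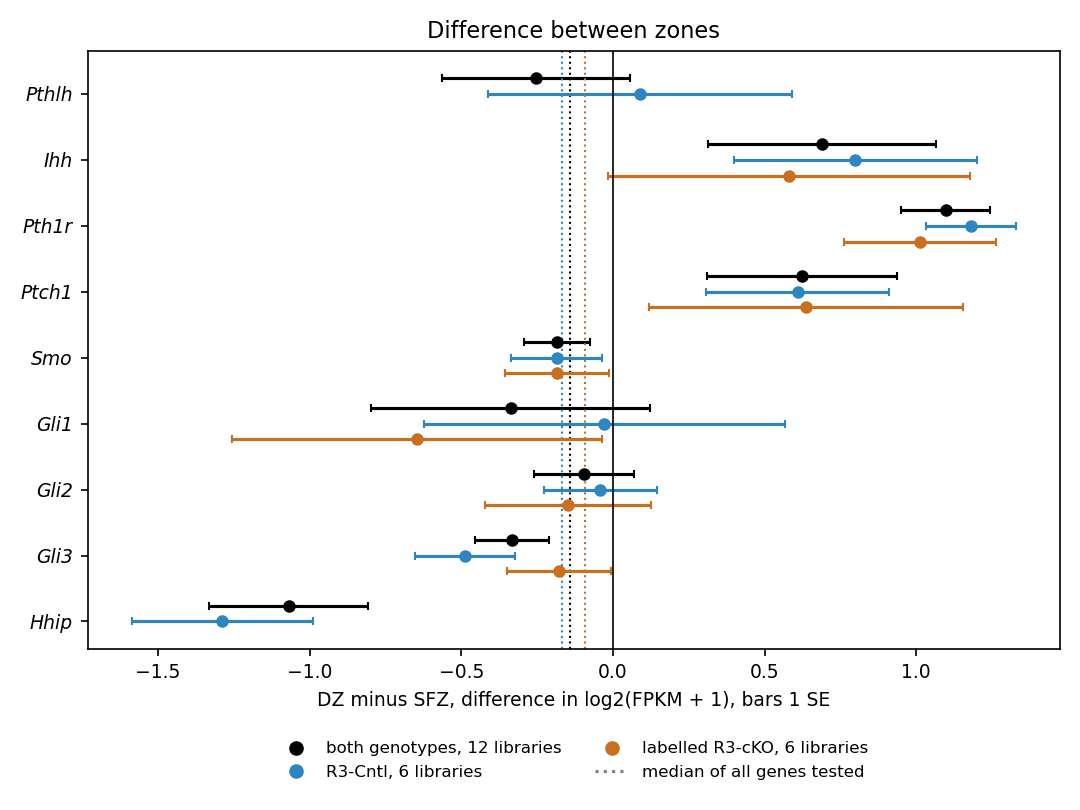
Difference between zones, DZ minus SFZ, in log2(FPKM + 1) for each gene over both genotypes (12 libraries) and within each genotype (6 libraries), with bars of 1 standard error; Pthlh and Hhip were not tested in the libraries labelled R3-cKO. Dotted lines are the medians of all genes tested, -0.14 over both genotypes; the bars of Pth1r lie to the right of 0 and those of Hhip to the left, while the sign of Gli2 turns under quantile normalization.

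Across all genes, 506 were called higher and 2219 lower in the DZ, and the median log2 difference was -0.14. The median was 0.03 after quantile normalization, with 1237 genes called higher and 915 lower, and -0.03 after scaling by median-of-ratios size factors, with 886 higher and 1199 lower. Pth1r and Hhip kept their calls under both. When both SFZ libraries with the most fibroblast RNA were left out, an alternative chosen after seeing the data, the log2 difference was 1.0 for Pth1r (limma adjusted p = 0.00721) and -1.30 for Hhip (limma adjusted p = 0.0126). The differences of Ihh and Ptch1 were then 0.38 and 0.20, and that of Gli1 was -0.91.

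Chondrocyte markers were higher in the DZ together with Pth1r, among them Col2a1 with a log2 difference of 1.57 (standard error 0.30, limma adjusted p = 0.00531). Most fibroblast markers were lower in the DZ together with Hhip, with 8 of 10 tested called lower (18.9% over all genes). Within the DZ 8 of the list passed the filter, and without a filter 7 of 11 were called lower. Dcn of this list had log2 differences above 0, at 1.41 within R3-Cntl and 0.97 within the libraries labelled R3-cKO. Macrophage genes were lower too, but only 2 of the 10 tested passed the filter within the DZ. Without a filter 5 of 11 were called lower, where 2289 of all 17536 genes were. In bulk RNA, fewer cells of a type and less RNA per cell cannot be told apart, and the part of these cells in either difference was not tested.

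Within R3-Cntl, 9 of the 9 genes were tested among 11336, and Pth1r was called higher in the DZ (log2 difference 1.18, standard error 0.15, limma adjusted p = 0.0473), so that 1 of 9 was called higher against 0.15% of all genes. The call was lost without a filter (adjusted p = 0.0760), under quantile normalization (0.0625), under median-of-ratios size factors (0.0599) and without each of 5 libraries left out in turn, namely SFZ libraries 2 (0.228) and 3 (0.110) and DZ libraries 1 (0.136), 2 (0.108) and 3 (0.0684). The log2 difference itself stayed at 1.05 to 1.27 when each library was left out. DZ libraries were all above SFZ libraries for Pth1r, 1 of 9 genes against 5.96% of all genes, and all below for Gli3 and Hhip, 2 of 9 against 26.5%. Hhip had a log2 difference of -1.29 (standard error 0.30, limma adjusted p = 0.0725), and its mean DZ level was 0.151 times its mean SFZ level; here too it passed the filter through SFZ libraries only. Gli3 had a log2 difference of -0.49 (standard error 0.16, limma adjusted p = 0.127).

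Within the libraries labelled R3-cKO, 7 of the 9 genes were tested among 11336, since Pthlh and Hhip were at or above 1 FPKM in too few libraries. Of the 7, 0 were called at an adjusted p under 0.05 in limma, where 0.0176% of all genes were, and 1 had an unadjusted p under 0.05, as did 344 higher and 1258 lower genes of all 11336. That gene was Pth1r, with a log2 difference of 1.01 (standard error 0.25, adjusted p = 0.184 in limma and 0.0517 with the replicate number as a block), and its DZ libraries were all above its SFZ libraries, as for 4.24% of all genes. The DZ to SFZ ratio of mean FPKM of Pth1r was 2.33 in R3-Cntl and 2.08 in the libraries labelled R3-cKO. Without a fit across genes, Pthlh was lower in all DZ libraries than in all SFZ libraries labelled R3-cKO (difference of log2 means -0.60, or -1.49 and -0.17 at pseudocounts of 0.1 and 5, with no test because libraries sharing a number deviated together here), which held for 15.4% of the 17048 genes above 0. Hhip differed by -0.85 (-2.11 and -0.27 at those pseudocounts) with overlapping zones.

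Genotypes were compared in the SFZ over 11537 genes, of which 0% were called at an adjusted p under 0.05 in limma, and 0 of the 8 genes tested were called. At an unadjusted p under 0.05, 21 genes were higher and 13 lower. Pth1r was the member among the 13, at a log2 change of -0.47 (standard error 0.18, adjusted p = 1.0 in limma). All 3 libraries labelled R3-cKO were below the R3-Cntl libraries, a separation in this direction that 0.953% of all genes had. The mean FPKM of Pth1r in the libraries labelled R3-cKO was 0.723 times that in R3-Cntl. Its log2 fold change was -0.28 without SFZ library 3 labelled R3-cKO, and the same without both libraries of high fibroblast RNA. For Hhip the log2 change was -0.72 (standard error 0.47, limma adjusted p = 1.0). It ran from -1.11 to -0.32 over the fits that left out a library. Pthlh was not tested by limma; its log2 means differed by -0.10 (exact permutation p = 0.9), and the sign turned without R3-Cntl library 1 (0.51) and without library 3 labelled R3-cKO (0.11).

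In the DZ, 11091 genes were tested between genotypes, 0% were called at an adjusted p under 0.05 in limma, and 0 of the 7 genes tested were called. At an unadjusted p under 0.05, the libraries labelled R3-cKO were higher for 277 genes and lower for 127, and Pth1r was the member among the 127. Its log2 change was -0.64 (standard error 0.22, limma adjusted p = 0.999), with the genotypes apart in this direction as for 2.78% of all genes, and its ratio of means was 0.648. A block for the replicate number gave Pth1r an adjusted p of 0.138. With this block, 1278 genes were higher and 552 lower at an unadjusted p under 0.05, and 0 passed an adjusted p of 0.05. Pth1r, Gli1 and Ptch1 were the members among the 552, and Ptch1 had a log2 change of -0.27. For Gli1 the log2 change was -0.80 (standard error 0.35), with a limma adjusted p of 0.999, or of 0.147 with the block, and it ran from -1.06 to -0.48 when each library was left out. Of the 7 estimates, 6 were below 0, and Gli3 was the exception at 0.17. For the marker lists the DZ median log2 changes were -0.44 for 14 chondrocyte genes, -0.34 for 13 prehypertrophic and hypertrophic genes, -0.66 for 5 osteoblast genes, -0.70 for 2 macrophage genes, 0.55 for 4 keratinocyte genes, 0.51 for 4 tendon genes and 0.45 for 2 skeletal muscle genes, and 0 marker genes were called. In the SFZ the medians of these lists were -0.02, -0.37, -0.71, -0.11, 0.08, 0.18 and -1.21. They covered 14, 13, 5, 10, 4, 6 and 3 genes, since more macrophage, tendon and muscle genes passed the filter there. Whether cell content bears on the change of Pth1r was not tested.

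Pthlh and Hhip were below the filter in the DZ and were compared without a fit across genes. The log2 means of Pthlh differed by -0.79, R3-cKO minus R3-Cntl, or by -1.91 at a pseudocount of 0.1 and -0.23 at one of 5, and its groups were apart in this direction, as for 2.92% of the 16891 genes above 0. Those of Hhip differed by -0.28 with overlapping groups, or by -1.12 and -0.07, so the size of both differences depends on the pseudocount. Inside numbers 1, 2 and 3 the differences were -0.81, -0.78 and -0.77 for Pthlh and -0.27, -0.04 and -0.54 for Hhip, added after the values had been seen and given without a test, since DZ libraries sharing a number deviated together. The Pthlh values labelled R3-cKO, 0.12 to 0.30 FPKM, rest on few fragments, about 5 at the lowest. In the plot of differences between genotypes, Pth1r lies left of 0 in both zones, and the wide bars of Gli1 and Ihh in the SFZ cross 0.

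**Figure D3:**
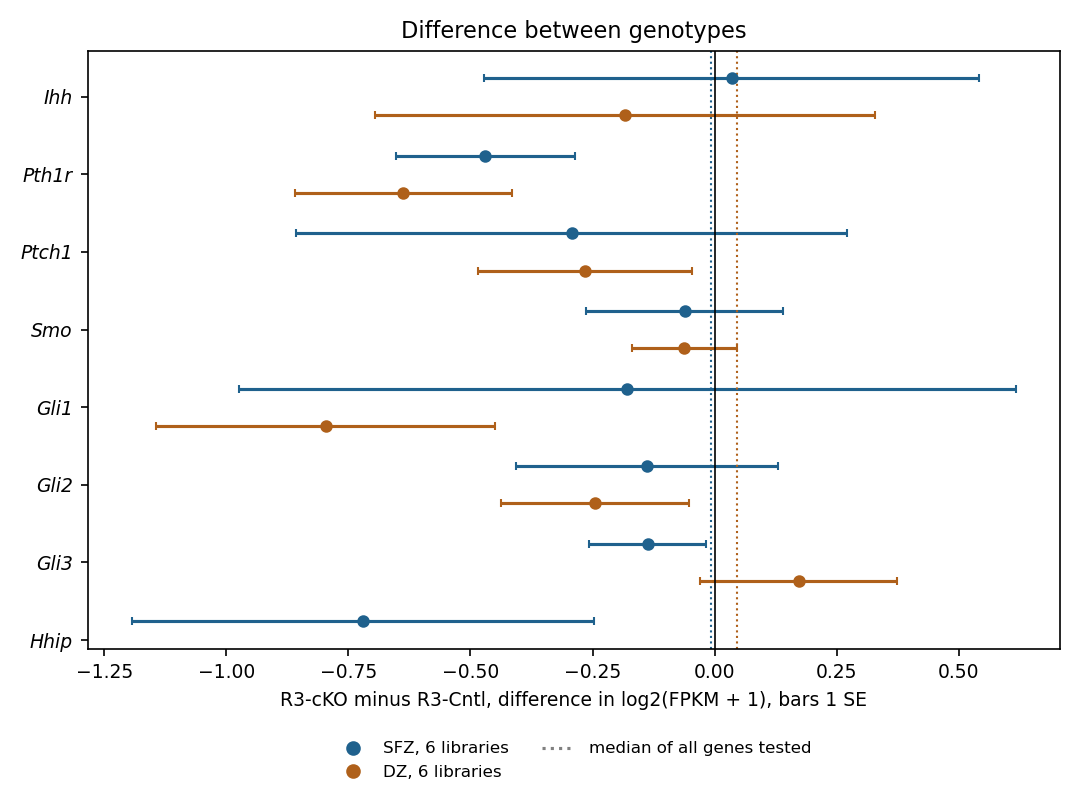
Difference between genotypes, R3-cKO minus R3-Cntl, in log2(FPKM + 1) in the SFZ and in the DZ (6 libraries each), with bars of 1 standard error and dotted lines at the medians of all genes tested, -0.01 and 0.05. Pth1r lies at -0.47 and -0.64; Pthlh in both zones and Hhip in the DZ were not tested, and no gene passed an adjusted p of 0.05.

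The comparisons between zones and between genotypes share libraries, so their values for a gene are set side by side only. For Pth1r they were 1.18 and 1.01 between zones and -0.47 and -0.64 between genotypes. Whether the genotype effect differed between zones was tested as an interaction over 11765 genes in limma, with 0% of all genes and 0 of the 9 genes called at an adjusted p under 0.05, and with 78 genes higher and 21 lower at an unadjusted p under 0.05. The difference of effects, DZ minus SFZ, was -0.17 for Pth1r (standard error 0.30, adjusted p = 0.999) and -0.69 for Pthlh (standard error 0.61, adjusted p = 0.999). With each library left out, these ran from -0.39 to -0.04 and from -1.30 to -0.30.

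The ligand and its targets were compared across the 6 libraries of each zone, since Ptch1 and Gli1 are transcribed in response to hedgehog. DZ libraries sharing a number deviated together from their group means over 11359 genes (r = 0.65, 0.78 and 0.69). The 6 DZ libraries therefore cannot be permuted freely, and DZ values are printed without a test. SFZ libraries deviated together in pairs too, but across numbers. R3-Cntl library 1 went with library 1 labelled R3-cKO (r = 0.79), R3-Cntl 3 with 2 (0.69) and R3-Cntl 2 with 3 (0.45). Exact permutation p in the SFZ treats the 6 libraries as exchangeable, so no call is drawn from those values. Exact permutation p of the 7 DZ relations nevertheless entered the adjustment over the 14 relations below. An adjusted p over the 14 thus rests partly on tests that the DZ does not allow, and no call is drawn from it. In all, 14 relations were computed, 7 in each zone, of which those of Ihh with Col10a1 and of Pth1r with Col2a1 were added after their values had been seen. In the SFZ, Ihh and Ptch1 were correlated with r = 0.926 (n = 6, exact permutation p = 0.00833, Benjamini-Hochberg adjusted p over the 14 = 0.0389) and rho = 0.886 (exact permutation p = 0.0333, adjusted p = 0.117), and r was 0.941 without the 2 farthest libraries. Gli1 and Ptch1 were correlated in the SFZ with r = 0.941 (n = 6, exact permutation p = 0.00278, adjusted p = 0.0389) and rho = 0.943 (exact permutation p = 0.0167, adjusted p = 0.117), and r was 0.921 without the 2 farthest. SFZ library 1 of R3-Cntl and SFZ libraries 1 and 2 labelled R3-cKO were high for all 3 genes, and SFZ library 3 labelled R3-cKO was the lowest for all 3.

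Ihh and Gli1 in the SFZ had r = 0.878 (n = 6, exact permutation p = 0.0208, adjusted p = 0.0583), rho = 0.771 (exact permutation p = 0.103, adjusted p = 0.24) and r = 0.962 without the 2 farthest libraries. In the DZ, as a description, Gli1 and Ptch1 had r = 0.910 and rho = 0.886, Ihh and Ptch1 had r = 0.866 and rho = 0.886, and Ihh and Gli1 had r = 0.762 and rho = 0.657 (n = 6 each). Without the 2 farthest libraries, both of them numbered 1, r was 0.613 for Ihh and Ptch1 and 0.684 for Ihh and Gli1. Inside numbers 1, 2 and 3, the DZ differences in log2(FPKM + 1), R3-cKO minus R3-Cntl, were 0.05, -0.12 and -0.48 for Ihh, -0.19, -0.39 and -0.22 for Ptch1 and -0.91, -0.95 and -0.54 for Gli1, and their orders were not the same. These differences were added after the values had been seen.

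Of the 7 SFZ relations, 2 had an adjusted p under 0.05 by r and 0 by rho when DZ relations shared the adjustment. No call is drawn from that count, since neither the DZ nor the SFZ libraries can be permuted freely. When the adjustment covered the SFZ alone, a choice made after seeing the data, 3 were under 0.05 by r and 0 by rho. These are not calls either, for the same reason. By r the adjusted exact permutation p of the 3 relations was 0.0194 for Gli1 and Ptch1, 0.0292 for Ihh and Ptch1 and 0.0486 for Ihh and Gli1. Among all tested genes of the zone, 1.14% had an r with Ihh at least as high as Ptch1 in the SFZ and 1.75% in the DZ. These shares were 2.87% and 5.27% for Gli1, and 19.8% and 51.4% for Hhip. The part of fibroblast RNA, which was highest where the 3 genes were lowest in the SFZ, was not tested. The plots of Ptch1 and Gli1 against Ihh show the spread in both zones.

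**Figure D4:**
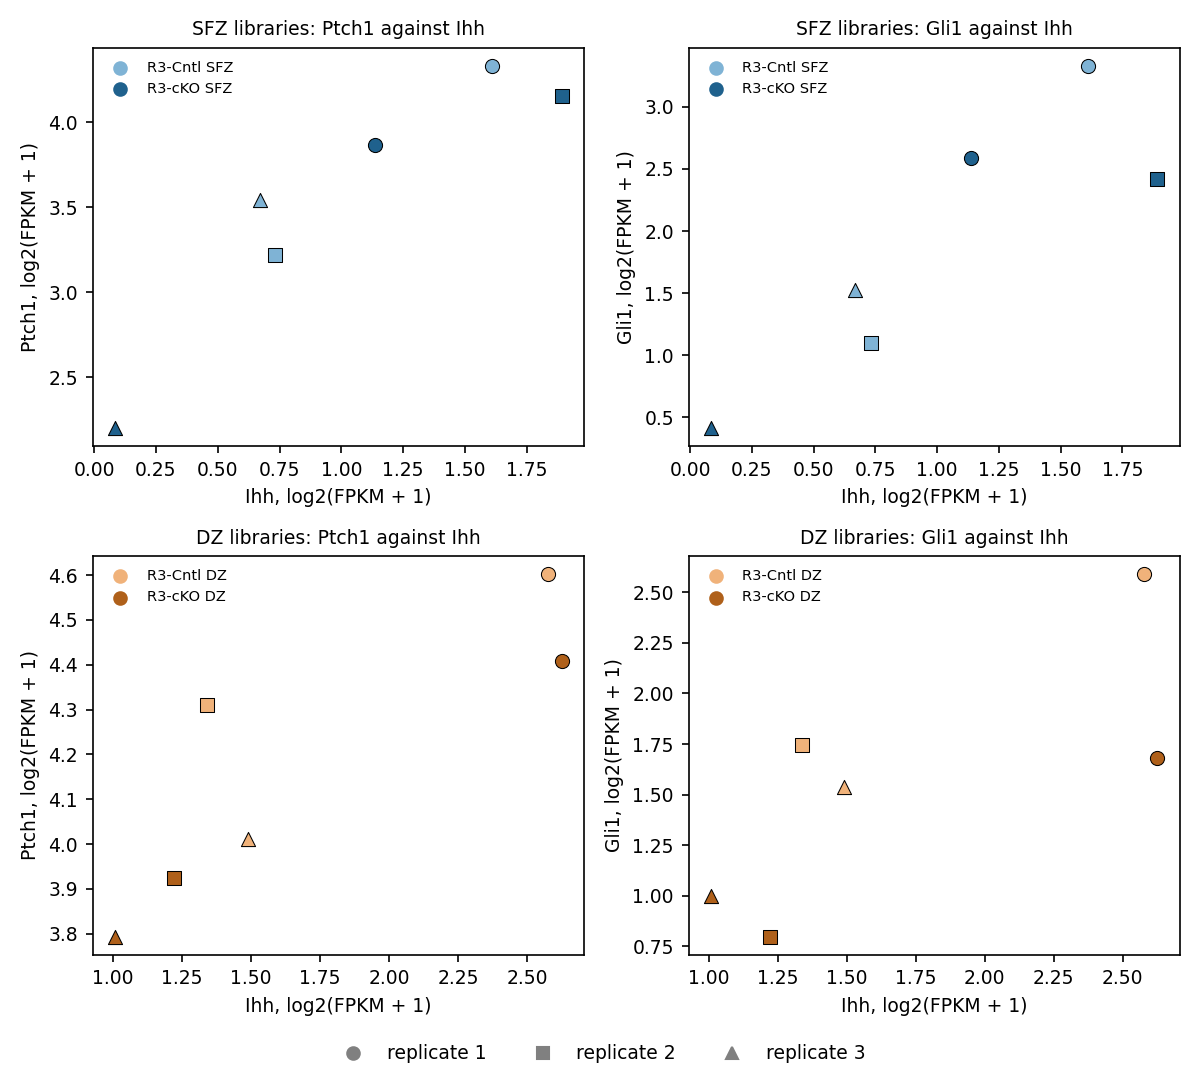
Ptch1 (left) and Gli1 (right) against Ihh, in log2(FPKM + 1), in the 6 SFZ libraries (top) and the 6 DZ libraries (bottom), coloured by genotype and shaped by replicate number. SFZ library 3 labelled R3-cKO is lowest on both axes in the top panels, and the libraries numbered 1 are farthest right in the bottom panels.

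The remaining SFZ relations had adjusted p above 0.05. Ihh and Col10a1 in the SFZ had r = 0.829 (n = 6, exact permutation p = 0.0389, adjusted p = 0.0907), rho = 0.600 (exact permutation p = 0.242, adjusted p = 0.338) and r = -0.047 without the 2 farthest libraries, so the relation rested on those libraries. In the DZ they had r = 0.663, rho = 0.486 and r = 0.123 without the 2 farthest. Ihh and Pthlh, the arms of the feedback loop, had r = 0.646 in the SFZ (n = 6, exact permutation p = 0.16, adjusted p = 0.248; rho = 0.771, exact permutation p = 0.103, adjusted p = 0.24; r = 0.996 without the 2 farthest). In the DZ these genes had r = 0.279, rho = 0.600 and r = 0.801 without the 2 farthest. In the SFZ the relations of Ihh with Hhip and of Pth1r with Col2a1 had adjusted p of 0.272 and 0.365 by r (n = 6, exact permutation).

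The genes whose pattern over the 12 libraries was most like that of a ligand or of Gli1 were listed by Pearson r of log2(FPKM + 1) among 11765 genes, as a description, since the points share zones and genotypes. For Pthlh they were Ints6l (r = 0.931), Rbm39 (0.920), Chrdl2 (0.912), Rpl5 (0.910) and Dnm1 (0.905). For Ihh they were Inpp5a (0.937), Spry3 (0.911), Gdf15 (0.909), Gnpnat1 (0.907) and Cox17 (0.901). For Gli1 they were Bmper (0.941), Bcl2 (0.935), Rpl35a (0.931), Rps23 (0.915) and Otog (0.912). After the 4 group means were removed, these values of r ran from 0.877 for Cox17 with Ihh to 0.954 for Bcl2 with Gli1. Bcl2, a gene that limits apoptosis and is known as a Gli target, was also on the list of hedgehog responsive genes.

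Other genes of the pathways were taken from 9 lists, with 129 genes besides the members in the table and 117 tested. Between zones over both genotypes, 4 were called higher and 37 lower in the DZ in limma, where 4.3% and 18.9% of all genes were, and the median log2 difference was -0.21 against -0.14 over all genes. Under quantile normalization 7 were called higher and 11 lower, where 1237 and 915 of all 11765 genes were, and 15 of the 41 calls were kept. Under median-of-ratios size factors 6 were called higher and 22 lower, where 886 and 1199 of all genes were, and 26 of the 41 were kept. No call turned its sign under either. The plot of list genes by zone difference shows most points between -1 and 1 and a few far to the left.

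**Figure D5:**
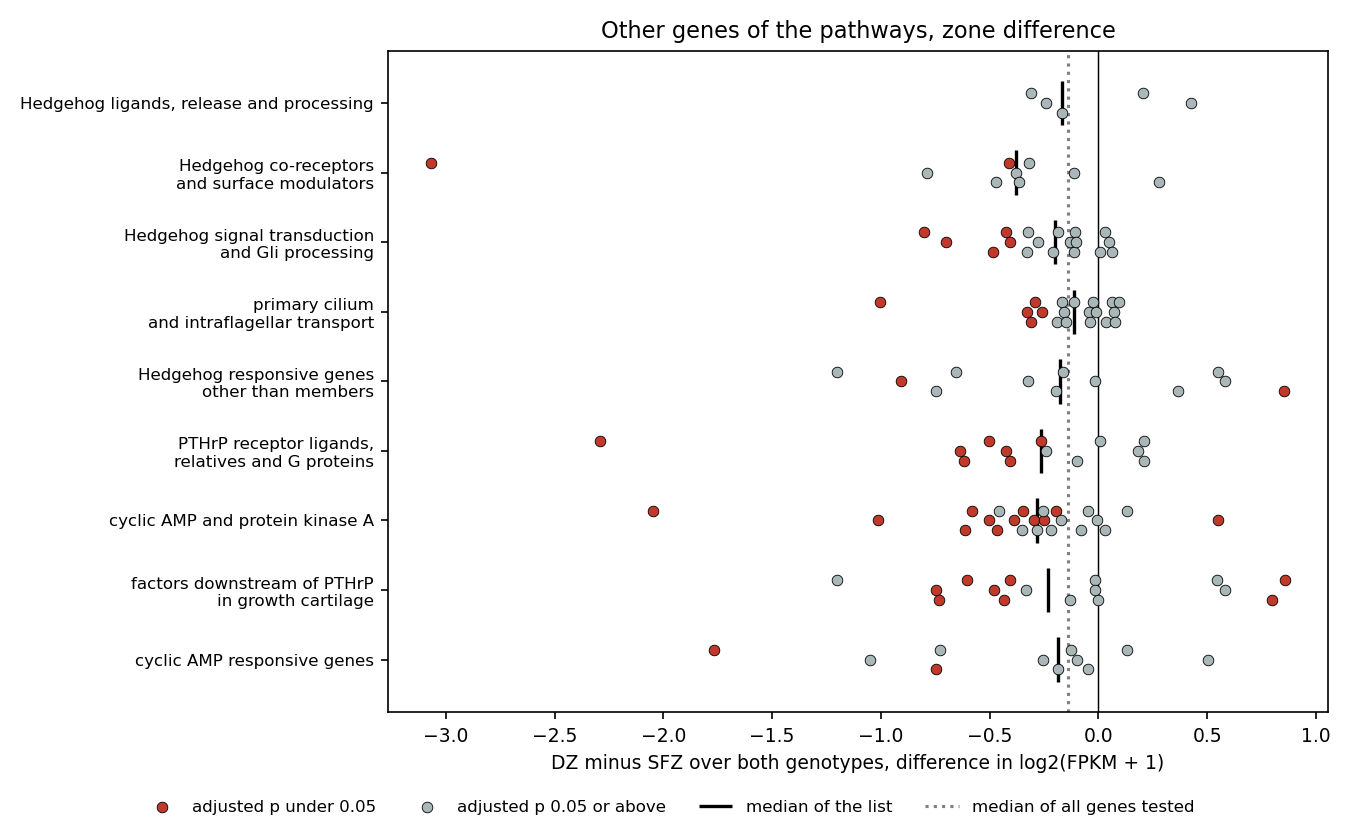
Zone difference, DZ minus SFZ over both genotypes (12 libraries), in log2(FPKM + 1) for the tested genes of the 9 pathway lists; red points have an adjusted p under 0.05, black bars are list medians and the dotted line is the median of all genes, -0.14. Gas1 (-3.07) and Ramp2 (-2.29) lie farthest to the left.

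Among hedgehog co-receptors and surface modulators, 2 of 9 tested genes were called lower in the DZ (18.9% over all genes) and 0 higher (4.3%), with a median log2 difference of -0.38. Gas1 encodes a co-receptor that helps hedgehog bind Ptch1. SFZ levels of Gas1 were 115.69, 287.16 and 127.64 FPKM for R3-Cntl against 176.51, 122.63 and 605.04 FPKM under the R3-cKO label. DZ levels of Gas1 were 4.22, 21.64 and 63.70 FPKM for R3-Cntl, against 9.60, 36.67 and 53.34 FPKM under the R3-cKO label. The zones did not overlap, and the highest values were in the SFZ libraries with the most fibroblast RNA. The share of all genes separated so over 12 libraries was not computed. Within R3-Cntl, DZ libraries were all below SFZ libraries for 26.5% of all genes. The log2 difference of Gas1 was -3.07 (standard error 0.63, limma adjusted p = 0.00743). Cdon, a further co-receptor, had one of -0.41 (standard error 0.09, limma adjusted p = 0.0115).

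Among ligands other than Ihh and genes of their release, 0 of 5 tested were called, with a median of -0.17; Shh was not in the table, Dhh was at most 0.31 FPKM, and Disp1, which releases hedgehog from cells, was the most abundant at a median of 12.8 FPKM. In signal transduction and Gli processing, 5 of 18 genes were called lower (18.9% over all genes) and 0 higher, with a median of -0.20. Evc, a ciliary partner of Smo, had a log2 difference of -0.80 (limma adjusted p = 0.00632), and Rab23, a negative regulator of the pathway, had one of -0.70 (adjusted p = 0.00242). The others were Gpr161 (-0.49), Arrb2 (-0.42) and Evc2 (-0.41), and Csnk1a1 was the most abundant gene of the list at a median of 118.5 FPKM. Among 19 genes of the primary cilium, 5 were called lower, against the same 18.9%, and 0 higher, with a median of -0.11. They were led by the cation channel gene Pkd2 (-1.0, limma adjusted p = 0.00101). Without a filter, 3 of the 19 were called lower, where 2289 of all 17536 genes were.

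Among hedgehog responsive genes other than the 9, 1 of 12 tested was called higher (4.3% over all genes) and 1 lower (18.9%), with a median log2 difference of -0.18. Foxd1 was the higher (0.85, limma adjusted p = 0.0178) and Hsd11b2 the lower (-0.91, limma adjusted p = 0.0243). Cdkn1c, a cell cycle inhibitor, was the most abundant at a median of 226 FPKM. Without a filter, 1 of 15 genes of this list was called higher and 2 lower, where 516 and 2289 of all 17536 genes were.

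On the PTHrP side, 7 of 13 tested genes for receptor ligands, relatives and G proteins were called lower in the DZ, where 18.9% of all genes were, and 0 higher, with a median of -0.26. With no filter, 6 of 16 were called lower, where 2289 of all 17536 genes were. Pth was not in the table. Ramp2, which encodes an accessory protein of Pth1r and of other receptors, had group means of 11.1 FPKM in R3-Cntl SFZ, 14.0 FPKM in SFZ labelled R3-cKO, 1.56 FPKM in R3-Cntl DZ and 0.947 FPKM in DZ labelled R3-cKO. Its log2 difference was -2.29 (standard error 0.41, limma adjusted p = 0.00405), opposite in sign to that of Pth1r. The other called genes were Adcy7 (-0.64), Arrb1 (-0.62), Adcy6 (-0.51), Arrb2 (-0.42), Adcy3 (-0.41) and Gnaq (-0.26). Gnas, which encodes the stimulatory G protein, was abundant in every group, with a median of 1032 FPKM.

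Among 23 genes of cyclic AMP and protein kinase A, 11 were called lower in the DZ (18.9% over all genes) and 1 higher (4.3%), with a median of -0.28. With no filter, 9 of the 23 were called lower and 1 higher, where 2289 and 516 of all 17536 genes were. Akap12, an anchor of protein kinase A, had a log2 difference of -2.05 (standard error 0.25, limma adjusted p = 0.000666). Prkar2b, a regulatory subunit, had one of -1.01 and Prkaca, a catalytic subunit, one of -0.61. Pde3a, a phosphodiesterase, was the gene called higher (0.55, limma adjusted p = 0.00333). Among cyclic AMP responsive genes, 2 of 11 tested were called lower against 18.9% of all genes, Rgs2 (-1.77, limma adjusted p = 0.00514) and Sik1 (-0.75), 0 were called higher, and the median was -0.19.

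Among 16 factors that act downstream of PTHrP in growth cartilage, 2 were called higher in the DZ (4.3% over all genes) and 6 lower (18.9%), with a median of -0.23. The higher were Sox9, the master factor of chondrocytes (0.80, limma adjusted p = 0.00767), and Nkx3-2, a repressor of maturation (0.86, limma adjusted p = 0.0479). The lower were Sik1 (-0.75), Zfp521 (-0.73), Hdac4 (-0.60), Sik2 (-0.48), Runx2 (-0.44) and Hdac5 (-0.41). Hdac4 and Zfp521 restrain Runx2, the driver of hypertrophy, which was in the lower group too. Without a filter, 1 of the 16 factors was called higher and 6 lower, where 516 and 2289 of all 17536 genes were.

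Between genotypes, 0 genes of the 9 lists were called in either zone in limma. In the SFZ 0 of them had an unadjusted p under 0.05. In the DZ 3 were higher at that level, Foxf1 (log2 fold change 1.04), Csnk1e (0.60) and Prkaca (0.36), and Ramp2 (-0.39) and Ift88 (-0.33) were lower, all with a limma adjusted p of 0.999. Over all 11091 genes, 277 were higher and 127 lower at that level. Foxf1, a forkhead gene that responds to hedgehog, had DZ levels of 0.76, 1.59 and 1.49 FPKM for R3-Cntl, against 5.07, 4.18 and 2.14 FPKM under the R3-cKO label. These groups did not overlap, in a gene named after its values had been seen. The share of all genes apart in this direction is not given here.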

How the data were processed

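The authors sequenced RNA of SFZ and DZ chondrocytes as 100-bp paired-end reads and mapped them to mm9, and the submitters' processing notes name Bowtie 0.12.2. The deposited values, 1 per gene and library, behave as FPKM that the authors scaled by TMM, and they are not on a log scale. The 12 libraries were assigned to 4 groups by their column labels, and 0 columns were left unused. Reads were not available, and the fragments behind a value were estimated from the steps between low values, counted within 0.2 of a whole number.

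Values were analysed as log2(FPKM + 1) in R 4.3.3 with limma 3.58.1, with empirical Bayes moderation, a mean-variance trend and two-sided tests, for genes that reached 1 FPKM in 3 or more libraries of a comparison. Over all 12 libraries genotype was a term, and the interaction had its own model. Benjamini-Hochberg adjustment covered all genes tested, and the threshold was an adjusted p of 0.05. Pthlh was set between genotypes in the SFZ by two-sided exact permutation, which cannot go below p = 0.1 and treats the 6 libraries as exchangeable. Correlations, promoters and counts used Python 3.11.15 with NumPy 2.4.6 and pandas 2.3.3. The fit was also run on simulated data, and its outcome there is not given here.

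Libraries of the same number were correlated after removal of group means over 11359 genes whose mean reached 1 FPKM. Same-number values were the highest between genotypes in the DZ (0.65, 0.78 and 0.69) and between zones in libraries labelled R3-cKO (0.42, 0.78 and 0.65), but not in the other comparisons (0.58, 0.11 and -0.15 between zones of R3-Cntl; 0.79, -0.09 and -0.42 between genotypes in the SFZ). With the number as a block, no gene of the 9 passed an adjusted p of 0.05 in those paired comparisons.

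The members and lists were chosen with earlier results of these data known. Named genes were the 9 members, Runx3, list genes past the threshold between zones or genotypes (at most 6 a list), the most abundant genes of each list, marker genes at 0 and the 5 genes most like Pthlh, Ihh and Gli1. Genes with an unadjusted p under 0.05 between genotypes, Dhh, and the markers Prg4, Thbs4, Gdf5, Krt5, Krt14, Col2a1 and Col10a1 were named after their values were seen. Alternatives were pseudocounts of 0.1 and 5, no filter, median-of-ratios size factors, quantile normalization, the replicate block and each library left out in turn. Leaving out both SFZ libraries with the most fibroblast RNA, all alternatives for genes compared without a fit, the differences inside numbers, the adjustment over SFZ relations alone and the counts of list genes without a filter were chosen after seeing the data.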

Additional observations from a re-analysis of the deposited data

How the results depend on the processing

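Over 36 results, 519 alternatives were computed, of which 493 were counted as the same. For a gene fitted in limma this meant the same direction and the same side of the threshold. A count of members had to be equal. For a gene compared without a fit only the direction had to be kept, whatever the size of the change. Over both genotypes, the count of members called higher in the DZ was 1 under each alternative, and the count called lower was 1 to 2 when each library was left out in turn. The log2 difference of Pth1r ran from 1.01 to 1.15 and that of Hhip from -1.27 to -0.90 when each library was left out.

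With the replicate block, 2 members were called lower in the DZ over both genotypes, Hhip (adjusted p = 0.0157) and Gli3 (adjusted p = 0.0260). Within R3-Cntl, Pth1r kept its call with the block (limma adjusted p = 0.0260). Libraries of the same number were alike in some comparisons only. In R3-Cntl, the count called higher between zones was 0 without a filter, under quantile normalization and under median-of-ratios size factors (adjusted p of Pth1r 0.0760, 0.0625 and 0.0599), and 0 to 1 when each library was left out, with adjusted p from 0.0323 to 0.228. Without a filter more genes share the adjustment, and leaving out a library lowers the number of samples; otherwise the cause was not tested.

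The log2 difference of Gli2 over both genotypes reversed to 0.15 under quantile normalization and to 0.00912 under median-of-ratios size factors, and ran from -0.18 to 0.00819 when each library was left out. The difference of Pthlh between genotypes in the SFZ reversed to 0.14 at a pseudocount of 0.1 and ran from -0.49 to 0.51 when each library was left out, and was 0.11 without SFZ library 3 labelled R3-cKO. For both the cause was not tested. Few fragments limit Pthlh, Ihh and Hhip, whose lowest values stand for about 5, 4 and 5 fragments.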
